A study of Mus musculus with 16 samples.

Results

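The genes described are the DNA replication and mitosis gene families of mouse marrow progenitors: Mcm, Cdc, Orc and Kif (each with a following digit), the A, B, D and E cyclins (Ccna, Ccnb, Ccnd, Ccne), E2f, Cenp, Rfc, Pola, Pold, Pole and Prim. They were chosen by symbol, so some members carry a family's name without its function. The table used here held 40 such genes among 6288, and 156 symbols of the annotation have the same beginnings. The table held 4 of 10 Mcm genes, 8 of 33 Cdc genes, 4 of 21 Cenp genes, 9 of 42 Kif genes, 3 of 8 E2f genes, 2 of 6 Orc genes and 3 of 6 Pold genes. It also held 2 of 2 Ccne, 1 of 5 Ccnd, 1 of 2 Ccna and 3 of 6 Ccnb genes, and no Rfc, Pola, Pole or Prim gene. Counts below therefore describe those 40 genes and not whole complexes, and genes such as Mcm2, Cdc45, E2f1 and Cdc20 were not analysed here.

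RNA was measured by bulk sequencing in CD45-positive bone marrow cells enriched for lineage-negative, Kit-positive, Sca1-positive (LSK) cells, the fraction that holds blood stem cells and multipotent progenitors. Donors were Tet2-deficient (Tet2-/-) mice and wild-type (WT) C57Bl/6J mice of both sexes, aged 3 to 4 months. Marrow of all of them was collected at 3% oxygen, and the enriched cells stayed there (physioxia) or spent 6 hours in ambient air, about 21% oxygen, before RNA was taken. The 4 groups of 4 replicates were Tet2-deficient cells in physioxia, WT cells in physioxia, Tet2-deficient cells in air and WT cells in air. Tet2 encodes an oxygen-dependent enzyme that oxidises methylated cytosine in DNA. How its gene was disrupted, and whether marrow was pooled, is not given in the sources used here.

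Before a cell copies its DNA, the origin recognition complex (Orc) and Cdc6 load a ring of Mcm proteins, the replicative helicase, onto origins, and the kinase Cdc7 helps to fire them. D cyclins, then E cyclins, release E2F transcription factors from pocket proteins, and E2Fs switch on many replication genes. Cyclin A accompanies S phase, while centromere (Cenp) proteins and mitotic kinesins (Kif) attach and pull apart the chromosomes later. Blood stem cells divide rarely, whereas their erythroid descendants cycle fast.

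The promoters of 5 genes are printed because their genes carry the main patterns below and because they hold the words by which E2F and mitotic regulation are usually searched for. Sequences are from RefSeq (GRCm38.p6), 250 bases before to 50 after the start, written 5′ to 3′ along the gene. Capitals mark the E2F words TTTCCCGC, TTTCGCGC, TTTGCCGC and TTTGGCGC, the CHR word TTTGAA and the CCAAT box, on either strand.
Cdc6 promoter, chr11:98907901-98908200, plus strand: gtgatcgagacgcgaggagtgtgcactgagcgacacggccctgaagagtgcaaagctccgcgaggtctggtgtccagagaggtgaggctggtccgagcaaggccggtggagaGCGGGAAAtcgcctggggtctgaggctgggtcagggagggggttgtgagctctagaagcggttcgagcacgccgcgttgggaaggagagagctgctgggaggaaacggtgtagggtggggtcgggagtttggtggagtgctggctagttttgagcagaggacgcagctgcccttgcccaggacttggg
Mcm7 promoter, chr5:138171834-138172133, minus strand: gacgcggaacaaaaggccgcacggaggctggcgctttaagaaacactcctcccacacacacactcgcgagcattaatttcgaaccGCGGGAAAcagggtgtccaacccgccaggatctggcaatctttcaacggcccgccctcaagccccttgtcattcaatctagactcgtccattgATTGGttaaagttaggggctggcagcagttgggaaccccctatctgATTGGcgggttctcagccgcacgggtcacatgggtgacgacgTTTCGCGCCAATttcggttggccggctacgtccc
Pold1 promoter, chr7:44548766-44549065, minus strand: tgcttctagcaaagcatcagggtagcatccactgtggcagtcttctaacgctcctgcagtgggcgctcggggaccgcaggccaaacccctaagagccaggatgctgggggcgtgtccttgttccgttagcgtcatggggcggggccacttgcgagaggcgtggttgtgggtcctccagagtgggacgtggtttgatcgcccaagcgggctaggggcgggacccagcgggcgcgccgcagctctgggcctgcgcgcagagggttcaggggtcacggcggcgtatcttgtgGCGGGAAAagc
Cenpl promoter, chr1:161070517-161070816, plus strand: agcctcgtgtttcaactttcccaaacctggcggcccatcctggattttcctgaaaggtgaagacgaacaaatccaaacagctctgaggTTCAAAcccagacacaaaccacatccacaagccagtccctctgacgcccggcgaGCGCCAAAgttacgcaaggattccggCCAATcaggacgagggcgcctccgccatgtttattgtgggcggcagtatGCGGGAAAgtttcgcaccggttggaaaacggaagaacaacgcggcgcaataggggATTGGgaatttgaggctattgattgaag
Kif23 promoter, chr9:61946750-61947049, minus strand: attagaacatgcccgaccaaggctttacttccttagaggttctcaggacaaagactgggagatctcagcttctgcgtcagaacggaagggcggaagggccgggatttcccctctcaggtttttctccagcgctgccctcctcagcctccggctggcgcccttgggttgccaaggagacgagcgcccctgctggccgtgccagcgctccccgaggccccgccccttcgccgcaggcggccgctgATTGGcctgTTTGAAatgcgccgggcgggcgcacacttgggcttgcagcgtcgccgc
Cdc6 and Pold1 each hold 1 E2F word, Mcm7 (the upstream of its 2 starts) holds 2 E2F words and 3 CCAAT boxes, 1 of which overlaps an E2F word, and Cenpl holds 2 E2F words, 1 CHR word and 2 CCAAT boxes. Kif23 holds 1 CHR word and 1 CCAAT box. Of the 40 genes, 32 matched a RefSeq promoter, giving 37 promoters. An E2F word stood in 8 of the 37 (21.6%), against 3.57% of the promoters of all genes in the table and 2.26% of all promoters. The CHR word stood in 18.9%, against 12.8% and 17.9%, and the CCAAT box in 51.4%, against 37% and 37.4%. A word match is a description of letters and not a bound site.

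Depth ran from 7.77 to 15.7 M reads in the table's genes. All 40 members passed the filter on low values (4 or more libraries at 10 or more), as did 6110 genes in all. Normalized counts are read counts divided by 1 factor per library. Nearly every gene of the table differed in some comparison: by DESeq2, 98.25% of the table's genes and 40 of the 40 members reached an unadjusted p under 0.05 in one or more of the 4 comparisons between pairs of groups. Shares of called genes are therefore read against the table and not against the transcriptome. As a check of the labels, Tet2 ranged from 447 to 530 in Tet2-deficient against 592 to 812 in WT libraries in physioxia, and from 506 to 626 against 650 to 993 in air. These are gene-level counts, so exons that a deletion would leave in place also add reads.

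Markers of other cells moved with genotype. In Tet2-deficient libraries the 16 erythroid markers summed to 116350 to 311580 normalized counts in physioxia and 122580 to 345050 in air, against 43563 to 78090 and 35830 to 55414 in WT, and 13 (physioxia) and 15 (air) of 16 were called higher. T cell markers (8 measured, 8 and 7 called lower), neutrophil markers (7 measured, 6 and 6 lower) and monocyte markers (6 measured, 4 and 6 lower) stood lower in Tet2-deficient libraries. Called means a limma adjusted p under 0.05. Of all genes tested, 35.9% in physioxia and 42.1% in air were called higher, and 33.6% and 37.4% lower. The 1 measured B cell marker, Vpreb1, was called lower in physioxia and not in air. The stem and progenitor markers Kit, Procr, Slamf1 and Hlf, which mark the labelled cells, were detected in every library and called higher at both levels. Their part in the results below was not tested except by leaving libraries out, and in bulk RNA fewer cells of a type and less RNA per cell cannot be told apart. Tet2-deficient physioxia library 2 and Tet2-deficient air library 3 had the highest erythroid levels (mean log2 of the 16 markers 13.1 and 13.3), and WT physioxia library 2 held the highest value of 8 members and the lowest of 10.

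The libraries labelled Tet2-deficient air 3 and 4 stood apart from air 1 and 2 of their group. Over the 300 genes of the table called higher in physioxia than in air in WT cells, the median log2 level above the WT air mean was 1.39 in Tet2-deficient air library 3 and 1.66 in library 4, against 0.43 in library 1 and 0.26 in library 2. It ran from 1.29 to 1.52 in the Tet2-deficient physioxia libraries, from 0.98 to 1.75 in WT physioxia and from −0.19 to 0.42 in WT air. The 300 genes were chosen by the WT difference itself, so the gap between the WT ranges follows from that choice. For these genes both libraries thus lay at or above the lower end of the physioxia libraries and not near the other air libraries, although their labels say air. Over the 52 genes called lower in WT, air libraries 3 and 4 stood at −0.30 each, between air libraries 1 and 2 (−0.14 and −0.01) and Tet2-deficient physioxia (−0.71 to −0.44). Results in air are therefore also given without both.

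The genotype comparison asked which genes differ between Tet2-deficient and WT progenitors at each oxygen level. Among the members, the 5 genes of origin loading and firing had higher mean levels in Tet2-deficient cells. The A, D and E cyclin members with Cdc25a and the E2F members did too. Both polymerase delta subunits and both repair helicases among the members had lower means. These role groups were formed with earlier results of these data known, so their shared directions are a description and not a test. In physioxia 25 of the 40 members were called (17 higher, 8 lower; 62.5%, against 69.4% of all genes tested), where called means a limma adjusted p under 0.05. Higher calls took 42.5% of members against 35.9% of all genes, and lower calls 20% against 33.6%. In air 32 were called (20 higher, 12 lower; 80%, against 79.5%), with 50% higher against 42.1% and 30% lower against 37.4%. The members' median log2 difference was 0.35 in physioxia, against 0.06 over all genes tested, and 0.30 in air, against 0.24. Groups did not overlap for 20 members in physioxia (50%, against 57.6% of all genes) and 32 in air (80%, against 70.6%). Called shares near the table's background are no result about the members as a set. In air the count fell to 11 (8 higher, 3 lower; 27.5%, against 45.2% of all genes) when Tet2-deficient air libraries 3 and 4 were both left out. Leaving out air library 3 alone gave 24 (12 higher, 12 lower; 60%, against 66.3%), and 14 rather than 20 were higher without Tet2-deficient air library 4 or WT air library 4. Counting the protein-coding genes not in the table as unchanged gave 16 (10 higher, 6 lower; 40%, against 55% of the table's genes).

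The same 20 members were called in one direction at both oxygen levels, 14 higher and 6 lower. They make up 80% of the physioxia calls and 62.5% of the air calls, and none was called in opposite directions. With 69.4% and 79.5% of all genes tested called, many genes are called at both levels. The share of all genes called at both was not computed, so this overlap is no result about the members as a set. Per the labels' protocol the enriched cells were split between both oxygen levels, so the 2 comparisons may share marrow. Under every alternative that gave a value, 15 members kept their call in physioxia and 10 in air, and the like shares of all genes were not computed. Those 10 were Ccnb1ip1, Ccnb2-ps, Ccnd2, Ccne1, Cdc42bpa, Cenpl, E2f4, Kif21a, Kif3a and Poldip3, and the other 22 air calls, E2f8 and Kif23 among them, were lost without Tet2-deficient air libraries 3 and 4, while Cenpe was gained. Without the 2 libraries highest in erythroid markers (Tet2-deficient physioxia 2 and air 3), an alternative chosen after seeing the data, the calls came to 21 in physioxia (14 higher, 7 lower; 52.5%, against 62.9% of all genes) and 23 in air (12 higher, 11 lower; 57.5%, against 65.9%). Quantile normalization ended the physioxia calls of Cdc25a, Ccne2, Poldip3, Kif3c, Kif16b, Cdc37, Cdc42bpa and Cdc42se1 and the air calls of Cdc7, Orc5, Ccne2, Kif3c, Kif16b, Cdc37, Cdc42se1 and Ccnb1-ps. It gave calls to Mcm7, Ccna2 and Orc5 in physioxia and to Cdc6, Cenpe, Pold4 and Mcm9 in air.

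**Figure D1:**
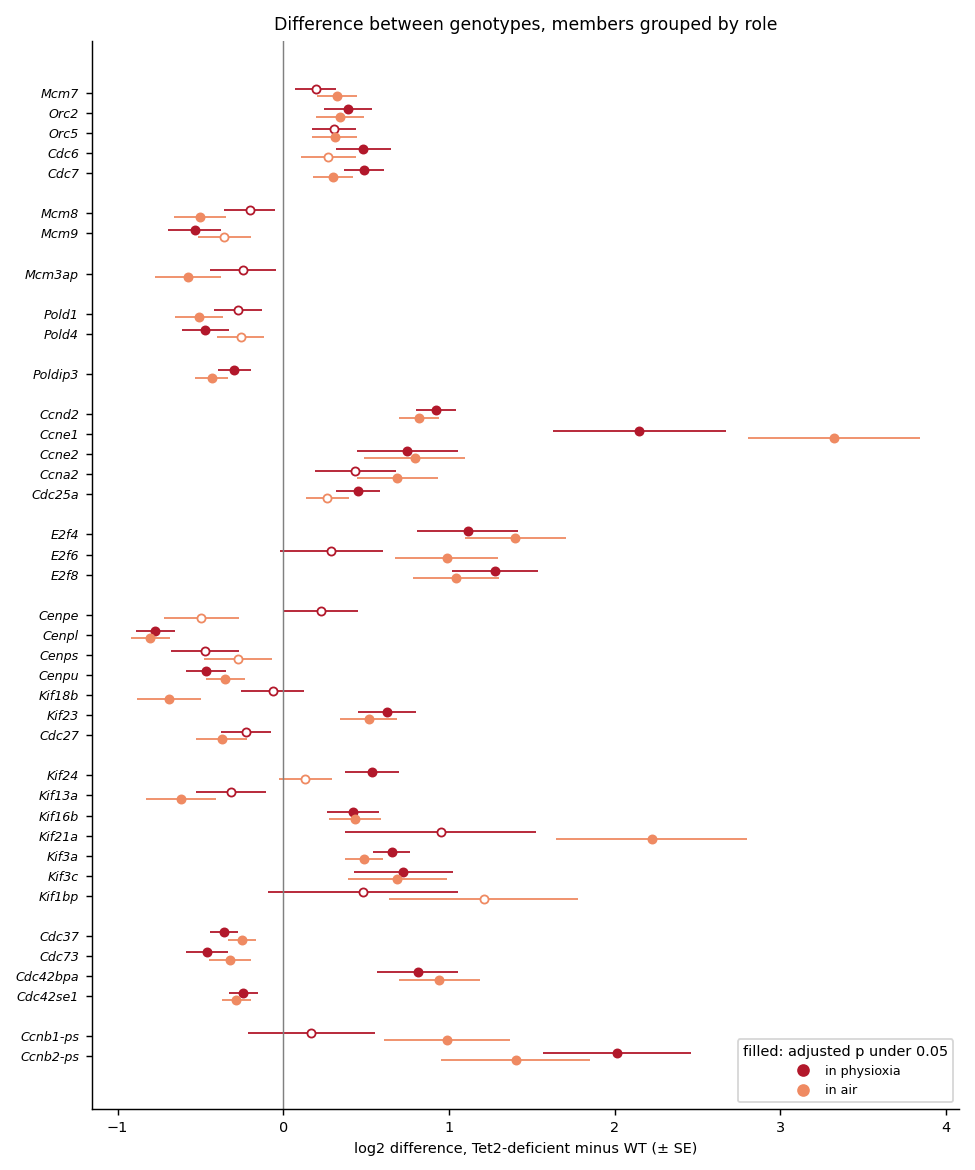
Log2 difference of normalized counts, Tet2-deficient minus WT (x axis, ± SE of the limma fit), for 39 members by role (y axis), in physioxia (dark red) and in air (orange). Filled points have an adjusted p under 0.05. The blocks of origin genes, cyclins and E2F factors lie right of 0, and the repair helicases and polymerase delta subunits lie left of it. The blocks were formed with earlier results of these data known. Ccnb1ip1, at 0 in all WT libraries, is left out because its fitted difference depends on the added count of 1.

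All 5 members of origin licensing and firing had higher mean levels in Tet2-deficient cells at both oxygen levels. The differences were 0.20 to 0.49 on the log2 scale in physioxia (3 called) and 0.27 to 0.34 in air (4 called). Outside the members, the origin-firing factor Ticrr had lower means (−0.33 in physioxia and −0.83 in air). Over all genes tested, 69.4% were called in physioxia and 79.5% in air, with median differences of 0.06 and 0.24. The air differences of the origin genes thus lay close to the median of all genes. Cdc7 (GRCm38 chromosome 5, 106964322 to 106984432), the kinase that fires loaded origins, had 1005, 991, 1076 and 927 normalized counts in Tet2-deficient physioxia libraries, against 746, 787, 566 and 774 in WT. Its air values were 911, 998, 837 and 901 in Tet2-deficient and 660, 802, 790 and 712 in WT libraries. At each oxygen level every Tet2-deficient library lay above every WT one. Cdc7 rose by 0.49 ± 0.12 (log2 difference ± SE, as below; adjusted p = 0.00266) in physioxia and 0.30 ± 0.12 (adjusted p = 0.0308) in air.

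Cdc6, the loader whose promoter is printed above (chromosome 11, 98907801 to 98923940), stood at 3788, 6084, 4527 and 3590 in Tet2-deficient physioxia libraries, against 2858, 3435, 2859 and 3506 in WT. Air-exposed Tet2-deficient libraries gave 3665, 3715, 5653 and 4154, against 3226, 3857, 3302 and 3663 in WT. The physioxia groups did not overlap and the air groups did. The difference was 0.48 ± 0.16 (adjusted p = 0.017) in physioxia and 0.27 ± 0.16 (adjusted p = 0.131) in air. Without Tet2-deficient physioxia library 2, one of the libraries highest in erythroid markers, Cdc6 differed by 0.33 in physioxia and was no longer called (adjusted p = 0.0689).

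Mcm7, a subunit of the replicative helicase and per kilobase of exon the most abundant of the 40 (3590 normalized counts per kb in Tet2-deficient and 3135 in WT physioxia cells, 3819 in Tet2-deficient and 3047 in WT air cells), passed the test only in air. Its counts were 14702, 18734, 15638 and 14478 in Tet2-deficient physioxia libraries against 12468, 16189, 12669 and 14178 in WT, which overlap. In air they were 15264, 15733, 20062 and 16544 in Tet2-deficient against 12400, 15169, 12339 and 14027 in WT libraries, which do not. It differed by 0.20 ± 0.12 (adjusted p = 0.162) in physioxia and rose by 0.32 ± 0.12 (adjusted p = 0.0262) in air. The air call was lost without Tet2-deficient air library 3 (0.24, adjusted p = 0.0914). The Mcm7 locus also hosts microRNAs within its gene.

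Orc2 and Orc5 are subunits of the complex that marks origins. Orc2 averaged 2363 ± 443 in Tet2-deficient and 1800 ± 297 in WT cells in physioxia (SD, n = 4 each, as below) and 2242 ± 330 and 1758 ± 109 in air, with differences of 0.39 ± 0.15 and 0.34 ± 0.15 (limma adjusted p = 0.0269 and 0.0425). Without Tet2-deficient physioxia library 2 and air library 3, Orc2 was called at neither level (0.28, adjusted p = 0.0788, and 0.24, adjusted p = 0.107). Opposite-strand exons of Nif3l1 share 29.8% of the exon bases of Orc2. Orc5 differed by 0.31 ± 0.13 at both levels and passed only in air (adjusted p = 0.051 in physioxia and 0.0437 in air).

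The other Mcm-named and polymerase members had lower means. Mcm8 and Mcm9, helicases of homologous recombination that are not part of the replicative ring, were lower on average at both oxygen levels. Mcm9 had 261, 260, 268 and 239 in Tet2-deficient physioxia libraries against 414, 369, 343 and 368 in WT, with no overlap, and fell by 0.54 ± 0.16 (adjusted p = 0.00874). In air its groups overlapped, at 238, 231, 239 and 302 in Tet2-deficient against 310, 302, 453 and 253 in WT (−0.36 ± 0.16, adjusted p = 0.0524). Opposite-strand exons of Asf1a share 19.2% of its exon bases. Mcm8 averaged 645 ± 102 in Tet2-deficient against 743 ± 115 in WT cells in physioxia (−0.20 ± 0.16, adjusted p = 0.251) and 630 ± 118 in Tet2-deficient against 882 ± 53.6 in WT cells in air, where it fell by 0.50 ± 0.16 (adjusted p = 0.0102).

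Pold1, the catalytic subunit of DNA polymerase delta, which copies the lagging strand (chromosome 7, 44532746 to 44548849), had 7478, 6284, 5815 and 8097 in Tet2-deficient physioxia libraries against 7752, 6718, 8711 and 10339 in WT. In air, Tet2-deficient libraries gave 8122, 7847, 6459 and 7167, against 8586, 10739, 11285 and 11544 in WT. The physioxia groups overlapped, whereas in air every Tet2-deficient library was below every WT one. Pold1 differed by −0.27 ± 0.14 (adjusted p = 0.105) in physioxia and fell by 0.51 ± 0.14 (adjusted p = 0.00687) in air. Without WT physioxia library 2 the physioxia difference was −0.37 and was called (adjusted p = 0.0294).

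Pold4, the small accessory subunit, fell in physioxia to 323 ± 33.2 in Tet2-deficient against 450 ± 70.2 in WT cells (−0.47 ± 0.14, adjusted p = 0.00852), and in air averaged 325 ± 9.42 in Tet2-deficient cells and 393 ± 64.7 in WT cells (−0.26 ± 0.14, adjusted p = 0.0976). A same-strand gene shares 24.6% of its exon bases. Of the genes named for a partner, Poldip3, which binds a polymerase delta subunit and also acts in mRNA export, fell at both levels (−0.30 ± 0.10 and −0.43 ± 0.10; adjusted p = 0.0155 and 0.00195). Mcm3ap, an mRNA export protein also named for its binding to Mcm3, fell in air (−0.57 ± 0.20, adjusted p = 0.0186) and differed by −0.24 ± 0.20 in physioxia (adjusted p = 0.288). Thus all 6 of these members had lower means at both levels.

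**Figure D2:**
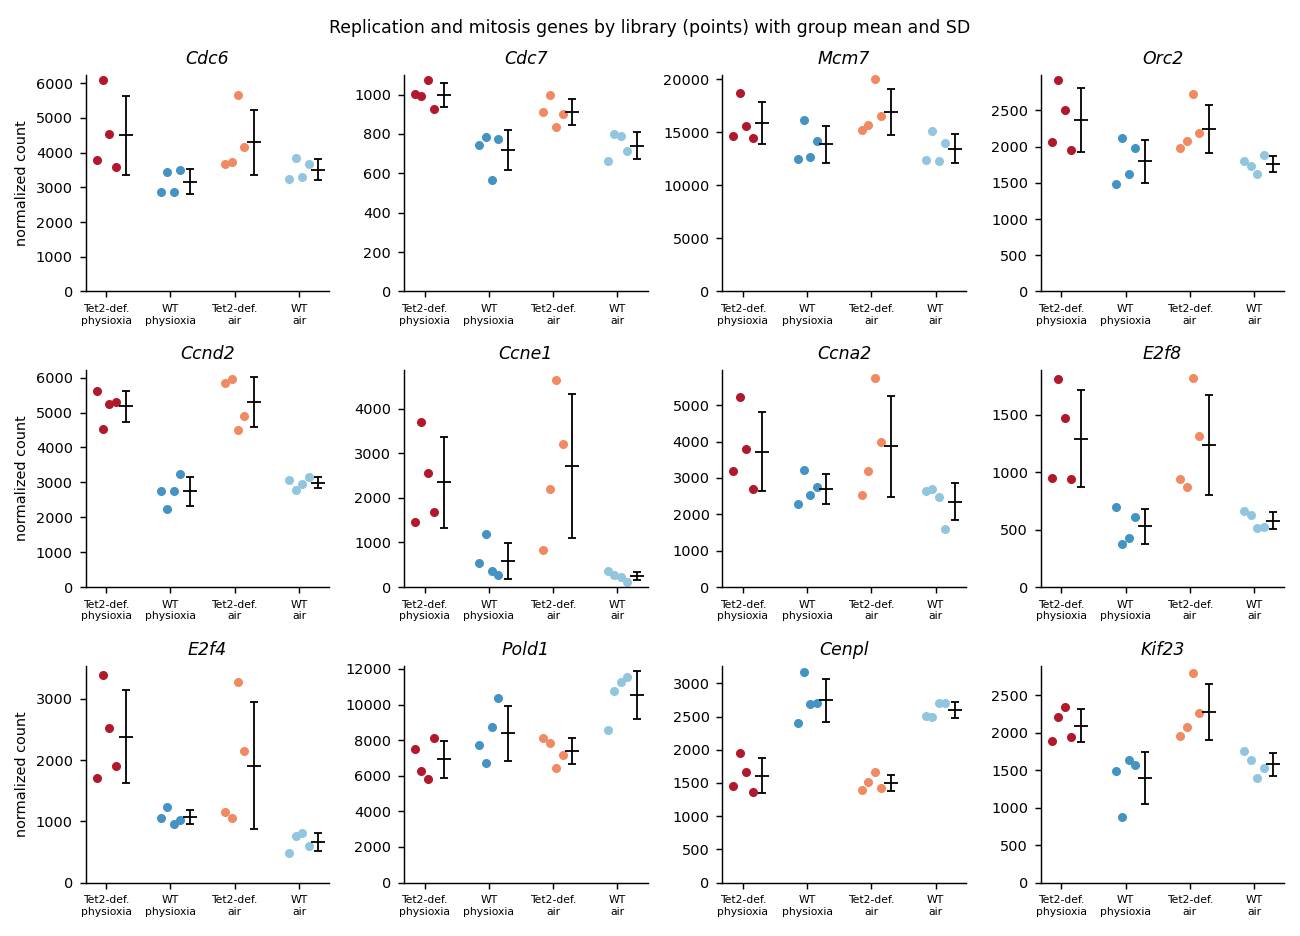
Normalized counts (y axis, linear from 0) of 12 members in each of the 16 libraries, by genotype and oxygen (x axis); points are libraries and the dash with bars is the group mean ± SD (n = 4). Cdc7, Ccnd2, Ccne1, E2f4, E2f8, Cenpl and Kif23 separate the genotypes at both oxygen levels. Ccne1, Ccna2, E2f4 and E2f8 have 1 or 2 high libraries in each Tet2-deficient group.

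The A, D and E cyclin members and the phosphatase that activates their kinases were higher on average in all 5 cases at both oxygen levels, with 4 called at each. By comparison, 69.4% of all genes tested were called in physioxia and 79.5% in air. Ccnd2, the D cyclin that couples growth signals to the exit from G1 (chromosome 6, 127125162 to 127152193), had 5616, 4536, 5239 and 5306 in Tet2-deficient physioxia libraries against 2761, 2222, 2762 and 3246 in WT. Its air values were 5857, 5970, 4501 and 4915 in Tet2-deficient and 3073, 2778, 2964 and 3143 in WT libraries. The lowest Tet2-deficient library, at 4501, exceeded the highest WT library, at 3246. Ccnd2 rose by 0.92 ± 0.12 (1.89-fold; adjusted p = 2.18e-05) in physioxia and 0.82 ± 0.12 (1.77-fold; adjusted p = 6.31e-05) in air. Unlike most cyclins here, its lowest Tet2-deficient values were in the libraries highest in erythroid markers.

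Ccne1, cyclin E1, which starts S phase with Cdk2 (chromosome 7, 38097984 to 38107534), had the largest fold of the well-counted members. It had 1459, 3708, 2563 and 1678 in Tet2-deficient physioxia libraries against 537, 1183, 353 and 266 in WT. Air-exposed Tet2-deficient libraries gave 830, 2198, 4647 and 3223, against 349, 279, 229 and 121 in WT. Groups did not overlap at either level, but the Tet2-deficient air libraries spanned 830 to 4647. Ccne1 rose by 2.15 ± 0.52 (4.43-fold; adjusted p = 0.0026) in physioxia and 3.32 ± 0.52 (10.0-fold; adjusted p = 9.88e-05) in air, and stayed called under every alternative run. Its highest library was the one with the highest erythroid markers.

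Ccne2, cyclin E2, averaged 1100 ± 525 in Tet2-deficient against 619 ± 174 in WT cells in physioxia and 1080 ± 442 in Tet2-deficient against 592 ± 73.1 in WT cells in air. It rose by 0.75 ± 0.30 and 0.79 ± 0.30 (limma adjusted p = 0.0383 and 0.0276). Without Tet2-deficient physioxia library 2 and air library 3 it differed by 0.47 and 0.55 and was called at neither level (adjusted p = 0.0907 and 0.0535). Opposite-strand exons of Ints8 share 17.4% of its exon bases.

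Ccna2, the S and G2 phase cyclin, had 3192, 5229, 3784 and 2693 in Tet2-deficient physioxia libraries against 2269, 3221, 2543 and 2759 in WT. In air, Tet2-deficient libraries gave 2537, 3199, 5756 and 3986, against 2628, 2683, 2472 and 1594 in WT. The groups overlapped at both levels. Ccna2 differed by 0.43 ± 0.24 (adjusted p = 0.124) in physioxia and rose by 0.69 ± 0.24 (adjusted p = 0.0201) in air. The air call was lost without Tet2-deficient air library 3 (0.47, adjusted p = 0.076). Cdc25a, the phosphatase that activates Cdk2 at the G1/S step, had 632, 798, 701 and 562 in Tet2-deficient physioxia libraries against 479, 449, 531 and 498 in WT and rose (0.45 ± 0.13, adjusted p = 0.00774), and in air averaged 657 ± 52.2 in Tet2-deficient cells and 549 ± 78.9 in WT cells (0.27 ± 0.13, adjusted p = 0.0725).

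Of the E2F factors, E2f4 and E2f8 rose at both oxygen levels and E2f6 in air; all 3 are known chiefly as repressors of cell cycle genes. E2f8 (chromosome 7, 48866429 to 48881596) had 951, 1810, 1468 and 937 in Tet2-deficient physioxia libraries against 693, 378, 427 and 611 in WT. Its air values were 940, 874, 1816 and 1315 in Tet2-deficient and 658, 623, 512 and 519 in WT libraries. The genotypes did not overlap, the highest WT library standing at 693 and the lowest Tet2-deficient one at 874. E2f8 rose by 1.28 ± 0.26 (2.42-fold; adjusted p = 0.000841) and 1.04 ± 0.26 (2.06-fold; adjusted p = 0.00321). With air libraries 3 and 4 of the Tet2-deficient group both left out, the air call was lost (0.66, adjusted p = 0.0642).

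E2f4, the main E2F bound to pocket proteins in resting cells and needed for red cell formation in the mouse, had 1699, 3396, 2520 and 1905 in Tet2-deficient physioxia libraries against 1052, 1228, 958 and 1022 in WT. Air-exposed Tet2-deficient libraries gave 1160, 1054, 3270 and 2153, against 485, 760, 808 and 595 in WT. The groups did not overlap within either level. E2f4 rose by 1.11 ± 0.30 (adjusted p = 0.0053) in physioxia and 1.40 ± 0.30 (adjusted p = 0.0013) in air. E2f6, which represses with Polycomb-type complexes, had 206, 203, 343 and 395 in Tet2-deficient air libraries against 145, 119, 181 and 117 in WT, and rose by 0.99 ± 0.31 (adjusted p = 0.0113), a call lost when the third and the fourth of these Tet2-deficient libraries were left out together (0.56, adjusted p = 0.175). In physioxia it had 269, 420, 515 and 390 in Tet2-deficient against 313, 597, 274 and 198 in WT libraries (0.29 ± 0.31, adjusted p = 0.414).

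**Figure D3:**
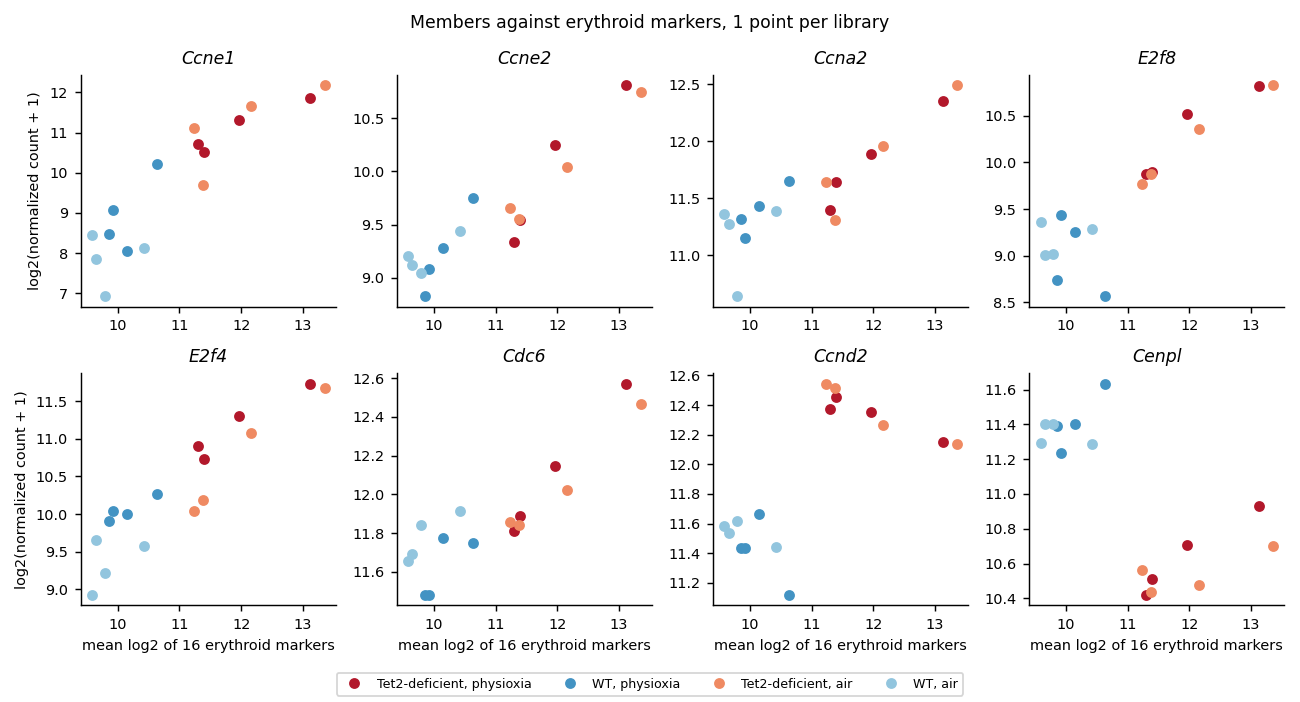
Log2 of normalized count plus 1 of 8 members (y axes) against the mean log2 level of 16 erythroid markers (x axes), 1 point per library, coloured by genotype and oxygen. The 2 libraries at the right, Tet2-deficient physioxia 2 and air 3, also stand highest for Ccne1, Ccne2, Ccna2, E2f8, E2f4 and Cdc6, while Ccnd2 is lowest there among Tet2-deficient libraries.

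In the plot of members against erythroid markers both axes come from the same libraries and scaling, and no test was made. Within each Tet2-deficient group, the library with the most erythroid RNA also held the highest Ccne1, Ccne2, Ccna2, E2f4, E2f8, Cdc6, Mcm7 and Orc2. The same libraries held the highest Orc5, Kif3a, Ccnb1ip1, Cenpe and Cenpl of their groups, although Cenpl was called lower in Tet2-deficient cells. In these libraries Klf1, an erythroid transcription factor, stood at 11184 and 11747, against 4502 to 6492 in the other Tet2-deficient libraries. Of the members named, Ccne1, E2f4, E2f8, Cenpl, Kif3a and Ccnb1ip1 kept their calls at both levels without those 2 libraries. Cdc6 was called in physioxia without both (0.33, adjusted p = 0.0291) but, at the same difference, not without physioxia library 2 alone. Ccne2, Ccna2, Mcm7, Orc2 and Orc5 lost each call they had, and Cenpe gained a call in air.

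Of 7 centromere and spindle members, 1 was called higher and 2 lower in physioxia, and 1 higher and 4 lower in air (median −0.22 and −0.37), where 33.6% and 37.4% of all genes tested were called lower. Cenpl, a subunit of the inner kinetochore (chromosome 1, 161070713 to 161086724), had 1458, 1951, 1670 and 1369 in Tet2-deficient physioxia libraries against 2409, 3176, 2686 and 2704 in WT. In air, Tet2-deficient libraries gave 1387, 1509, 1664 and 1423, against 2509, 2494, 2710 and 2703 in WT. The highest Tet2-deficient library, at 1951, lay below the lowest WT library, at 2409. Cenpl fell by 0.77 ± 0.12 (0.585-fold; adjusted p = 7.67e-05) and 0.80 ± 0.12 (0.574-fold; adjusted p = 5.33e-05), and stayed called under every alternative run.

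Cenpu, another inner kinetochore subunit, fell to 893 ± 55.9 in Tet2-deficient against 1247 ± 219 in WT cells in physioxia and 874 ± 66.0 in Tet2-deficient against 1113 ± 63.7 in WT cells in air (−0.47 ± 0.12 and −0.35 ± 0.12; limma adjusted p = 0.00337 and 0.0155). Opposite-strand exons of Primpol share 26.7% of its exon bases. Cenps, which acts at kinetochores and in crosslink repair, had 1281, 1102, 1290 and 1226 in Tet2-deficient against 1432, 3186, 1411 and 1288 in WT physioxia libraries (−0.47 ± 0.21, adjusted p = 0.0504). In air Cenps had 1359, 1382, 1191 and 1199 in Tet2-deficient against 1483, 1556, 1585 and 1570 in WT libraries (−0.27 ± 0.21, adjusted p = 0.214). WT physioxia library 2 stood at more than any other, and without it the air difference was called (adjusted p = 0.00744) while the physioxia difference was −0.17 (adjusted p = 0.0922). Cenpe, the kinesin motor of kinetochores, differed by 0.22 ± 0.23 in physioxia (adjusted p = 0.384) and −0.49 ± 0.23 in air (adjusted p = 0.0542), and neither passed.

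Kif23, the central spindle kinesin needed for cytokinesis (chromosome 9, 61915905 to 61946774), was the spindle member that rose. It had 1886, 2204, 2347 and 1941 in Tet2-deficient physioxia libraries against 1487, 879, 1641 and 1562 in WT. Its air values were 1956, 2070, 2798 and 2260 in Tet2-deficient and 1754, 1636, 1399 and 1526 in WT libraries. The highest WT library, at 1754, lay below the lowest Tet2-deficient one, at 1886. Kif23 rose by 0.62 ± 0.17 (adjusted p = 0.00571) and 0.52 ± 0.17 (adjusted p = 0.0154), and the air call was lost without Tet2-deficient air library 3 (0.41, adjusted p = 0.0538) or without both libraries 3 and 4 (0.35, adjusted p = 0.15).

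Kif18b, a kinesin that trims astral microtubule ends, had 243, 229, 213 and 194 in Tet2-deficient air libraries against 385, 373, 294 and 370 in WT, and fell by 0.69 ± 0.19 (adjusted p = 0.00584). In physioxia it had 210, 258, 208 and 297 in Tet2-deficient against 221, 179, 307 and 329 in WT libraries, and the groups overlapped (−0.06 ± 0.19, adjusted p = 0.775). Cdc27, a subunit of the anaphase-promoting complex, fell in air (−0.37 ± 0.15, adjusted p = 0.0356) and differed by −0.22 ± 0.15 in physioxia (adjusted p = 0.197).

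Of 7 kinesins of transport and cilia, 4 were called higher and 0 lower in physioxia, and 4 higher and 1 lower in air, where 35.9% and 42.1% of all genes tested were called higher. Kif3a, a motor of the cilium, rose to 486 ± 51.8 in Tet2-deficient against 308 ± 18.8 in WT cells in physioxia (0.65 ± 0.11, limma adjusted p = 0.000236) and 436 ± 31.0 in Tet2-deficient against 311 ± 15.5 in WT cells in air (0.49 ± 0.11, adjusted p = 0.00206). Kif3c, a neuronal partner of Kif3a, rose by 0.72 ± 0.30 and 0.69 ± 0.30 (adjusted p = 0.041 and 0.0454), with 35.3% of its exon bases shared with an opposite-strand gene. Kif16b, an endosome motor, rose by 0.42 ± 0.16 and 0.43 ± 0.16 (adjusted p = 0.0273 and 0.0222). Kif24, which restrains cilium formation, rose in physioxia only by the test (0.53 ± 0.16, adjusted p = 0.00909; 0.13 ± 0.16 in air, adjusted p = 0.436).

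Kif13a, a cargo motor of endosomes, fell in air (−0.62 ± 0.21, adjusted p = 0.0162) and differed by −0.32 ± 0.21 in physioxia (adjusted p = 0.187). Kif21a, scarcely detected, gave 72 reads in Tet2-deficient and 14 in WT air libraries, a ratio with a 95% counting interval of 2.52 to 8.65, and was called in air (limma adjusted p = 0.00403). In physioxia it gave 84 and 47 reads, a ratio of 2.01 (1.39 to 2.94). Kif1bp, a kinesin-binding protein, passed at neither level (0.48 ± 0.57 and 1.21 ± 0.57; adjusted p = 0.462 and 0.0613).

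Of 4 Cdc-named genes outside the cycle, 3 fell and 1 rose at both oxygen levels, where 69.4% (physioxia) and 79.5% (air) of all genes tested were called. Cdc37, the Hsp90 co-chaperone of kinases, fell by 0.36 ± 0.08 and 0.25 ± 0.08 (limma adjusted p = 0.0021 and 0.0151), calls that quantile normalization ended (−0.12 and −0.13, adjusted p = 0.213 and 0.177). Cdc73, a subunit of the Paf1 transcription elongation complex, fell by 0.46 ± 0.13 and 0.32 ± 0.13 (adjusted p = 0.00565 and 0.0314). Cdc42se1, an effector of the GTPase Cdc42, fell by 0.24 ± 0.09 and 0.28 ± 0.09 (adjusted p = 0.0223 and 0.00983), with a physioxia difference near 0 after quantile normalization. Cdc42bpa, a Cdc42-binding kinase of the cytoskeleton, rose by 0.81 ± 0.24 and 0.94 ± 0.24 (adjusted p = 0.00911 and 0.00406).

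The widest genotype gap was in Ccnb1ip1 (chromosome 14, 50789248 to 50807732), a cyclin B interacting protein known as a meiotic crossover factor in the mouse. It gave 127 reads over the Tet2-deficient physioxia libraries and 144 over the Tet2-deficient air libraries, and 0 in all 8 WT libraries. Its normalized counts were 40.2, 57.3, 17.7 and 23.2 in Tet2-deficient physioxia and 22.1, 22.6, 53 and 32.2 in Tet2-deficient air. Against a floor of 3 reads per WT library it was at least 11.9-fold higher in physioxia and at least 10.5-fold higher in air (limma adjusted p = 2.26e-07 and 1.93e-07). Intervals and floors cover counting error only. A same-strand gene, Rpph1, shares 12.4% of its exon bases.

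Both B cyclin members were pseudogenes, Ccnb1-ps and Ccnb2-ps, whose reads could come from the parent genes, so they are uncertain. Ccnb2-ps gave 68 and 18 reads in Tet2-deficient and WT physioxia libraries, a ratio of 4.25 (95% counting interval 2.50 to 7.60), and 109 and 33 in air, a ratio of 2.89 (1.94 to 4.41). It was called at both levels (limma adjusted p = 0.00154 and 0.0122). Ccnb1-ps was called in air (80 and 33 reads, ratio 2.12, interval 1.40 to 3.29, adjusted p = 0.0283) and gave 47 and 53 reads in physioxia.

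**Figure D4:**
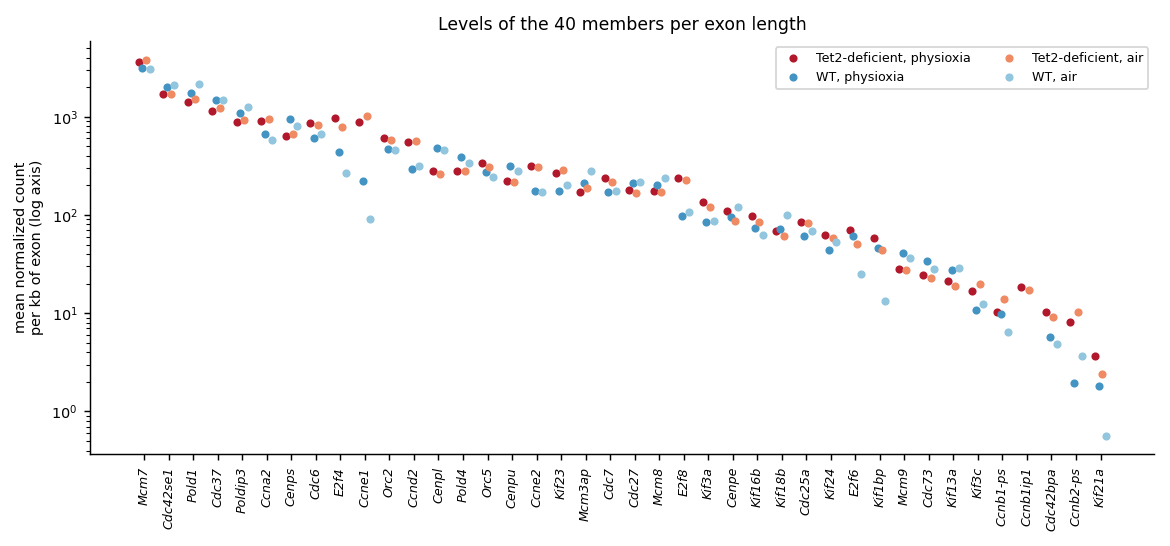
Mean normalized count per kilobase of exon (y axis, log scale) of the 40 members (x axis, ordered by their mean over all libraries) in the 4 groups. Mcm7 stands highest and Kif21a lowest, and the WT points of Ccnb1ip1, at 0, are not drawn.

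Per kilobase of exon, the S phase members spanned a wide range. In Tet2-deficient and WT physioxia cells, the mean normalized count per kb was 912 and 661 for Ccna2, 860 and 605 for Cdc6, 884 and 220 for Ccne1, and 315 and 177 for Ccne2. E2f4 stood at 971 and 434, above E2f8 at 237 and 96.9 and E2f6 at 70.4 and 61.0. In WT air Ccne1 stood at 91.8 per kb and Ccne2 at 169.

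Members with an E2F word were called in both directions. Of the 8 members with an E2F word (Mcm8, Pold1, Cdc6, Cdc42bpa, Mcm7, Cdc25a, Cenpl and Cenps), 3 were called higher and 1 lower in physioxia and 2 higher and 3 lower in air. Over all genes tested, 69.4% were called in physioxia and 79.5% in air. Ccna2, Ccnd2, Ccne2 and E2f4 were among the 8 members that matched no promoter, so theirs were not searched. In the sequences above, Cdc6 holds 1 E2F word and had a positive difference, and Cenpl holds 2 and had a negative one.

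Besides those of Cdc6 in physioxia and Kif23 in air, given above, single libraries decided several genotype calls, with limma adjusted p-values above 0.05 when left out. In physioxia these were Ccne2 (without Tet2-deficient library 2 or 3 or WT library 1, 3 or 4; 0.0584 to 0.153), Orc2 (Tet2-deficient 2 or 3, WT 1 or 3; 0.067 to 0.103), Poldip3 (WT 3 or 4; 0.0505 to 0.0518) and Cdc42se1 (Tet2-deficient 2 or 3, WT 3 or 4; 0.0538 to 0.0651). Kif16b (Tet2-deficient 1 or 4, WT 2; 0.0589 to 0.0858) and Kif3c (Tet2-deficient 1, 2 or 4, WT 2; 0.0606 to 0.133) were lost likewise. In air they were Cdc7 (Tet2-deficient 1, 2 or 4, WT 1 or 4; 0.0529 to 0.0902), Mcm7 (Tet2-deficient 3, WT 1 or 3; 0.0664 to 0.0914), Ccna2 (Tet2-deficient 3, WT 4; 0.0711 to 0.076) and Ccne2 (Tet2-deficient 3 or 4, WT 3 or 4; 0.0518 to 0.103). Cdc73 (Tet2-deficient 2, 3 or 4, WT 1 or 4; 0.057 to 0.0796), Kif16b (Tet2-deficient 4; 0.0567) and Ccnb1-ps (Tet2-deficient 3 or 4, WT 1 or 4; 0.0552 to 0.0732) were lost likewise. Orc2 (0.0501 to 0.141), Orc5 (0.0505 to 0.104), Cdc27 (0.0503 to 0.092) and Kif3c (0.0524 to 0.113) lost their air calls without any of 6, 9, 7 and 9 libraries. Calls were gained in physioxia without WT library 2 for Pold1, Mcm3ap (adjusted p = 0.0468), Kif13a (adjusted p = 0.00653) and Orc5 (adjusted p = 0.00819), without Tet2-deficient library 4 for Orc5 (adjusted p = 0.0103), and without WT library 1, 3 or 4 for Cenps (0.0202 to 0.0402). In air they were gained for Cdc25a without WT air library 1 (adjusted p = 0.0342), for Cenpe without Tet2-deficient air 3 or either physioxia library 2 (0.024 to 0.0469), for Kif1bp without WT physioxia 4 or Tet2-deficient air 1 or 2 (0.0158 to 0.0469), and for Mcm9 without WT physioxia 2, Tet2-deficient air 4 or WT air 4 (0.0209 to 0.0481).

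Other genes of the same processes were listed by function with earlier results of these data known. In physioxia 35.9% of all genes tested were called higher and 33.6% lower, and in air 42.1% and 37.4%. Of 23 measured other S phase genes (52 listed), 13 were called higher and 0 lower in physioxia and 18 higher and 2 lower in air (median 0.40 and 0.50, against 0.06 and 0.24 over all genes tested). Wdr76, a replication-linked protein, rose by 1.15 ± 0.15 and 0.99 ± 0.15 (limma adjusted p = 2.21e-05 and 8.18e-05). Fen1, the flap nuclease of lagging-strand synthesis, rose by 0.64 and 0.56 (adjusted p = 0.00155 and 0.00383), and Exo1, a repair nuclease, by 0.73 and 0.62 (adjusted p = 0.00106 and 0.00304). Ticrr, an origin-firing factor, fell in air (−0.83, adjusted p = 0.00184) and differed by −0.33 in physioxia (adjusted p = 0.134).

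Of 27 measured other mitosis genes (65 listed), 7 were called higher and 10 lower in physioxia and 7 higher and 16 lower in air (median −0.22 and −0.31). Cks2, a subunit of cyclin-dependent kinases, fell by 1.06 and 1.01 (limma adjusted p = 1.86e-05 and 2.93e-05), and Prc1, a central spindle bundler, fell by 0.40 and 0.56 (adjusted p = 0.00305 and 0.000264). Oip5, which helps to load centromeric histone, rose by 1.58 and 1.39 (adjusted p = 1.07e-05 and 3.79e-05). Of 16 measured brakes and pocket protein partners, 3 were higher and 9 lower in physioxia, and 5 higher and 6 lower in air. Among them Btg2, an antiproliferative factor, rose by 1.58 and 1.37 (adjusted p = 2.06e-07 and 7.71e-07), while Cdkn2d, an inhibitor of D cyclin kinases, fell by 0.92 and 0.76 (adjusted p = 0.000147 and 0.000665). Of 10 other cyclins and kinases, 3 were higher and 3 lower in physioxia and 2 higher and 3 lower in air.

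The oxygen comparison asked which genes differ between cells kept in physioxia and cells brought to air. In Tet2-deficient cells limma called 0 of 40 members (0% of all genes tested were called), groups did not overlap for 0 members (against 3.75% of all genes), 0 had an unadjusted p under 0.05, and edgeR and DESeq2 on the recovered reads also called 0. The members' differences, physioxia minus air, ran from −0.43 to 0.91 with a median of 0.04 (−0.004 over all genes). A p that misses the threshold does not show equal levels: the median SE was 0.16. The counts of 0 rest on all 4 Tet2-deficient air libraries, of which 3 and 4 lay with the physioxia libraries for genes that differ by oxygen in WT. Without both, 152 genes of the table (2.49%) and 2 members (5%) were called in Tet2-deficient cells, and 457 genes (7.48%) and 3 members (7.5%) in WT. Leaving out the air libraries that lay with physioxia favours such calls in Tet2-deficient cells by construction, so the gain is no separate result.

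In WT cells limma called 1 of 40 members, E2f6 (2.5%, against 5.76% of all genes tested in either direction and 4.91% higher), and 9 had an unadjusted p under 0.05. E2f6 (chromosome 12, 16810963 to 16839742) had 313, 597, 274 and 198 in WT physioxia libraries against 145, 119, 181 and 117 in WT air libraries, with no overlap; groups did not overlap for 2 members, E2f4 and E2f6 (5%, against 11% of all genes). It rose by 1.20 ± 0.31 (adjusted p = 0.035). The adjusted p ran from 0.002 to 0.13 over 29 alternatives, 20 of which called it. The call was lost without WT physioxia library 1, 2 or 3, or without WT air library 1, 2 or 4. Without WT physioxia library 2 the difference was 0.89 (adjusted p = 0.105). In Tet2-deficient cells E2f6 had 269, 420, 515 and 390 in physioxia against 206, 203, 343 and 395 in air, which overlap (0.50 ± 0.31, adjusted p = 1.0). The WT count was 3 without WT physioxia library 4, and 2 without Tet2-deficient air library 4 or WT air library 3. Of the other lists, 5 of 16 brakes and pocket protein partners were called higher in WT (Ccng2, Cdkn1c, Cdkn2c, Gadd45a and Lin54). So were 1 of 23 S phase genes (Dbf4), 1 of 27 mitosis genes (Mybl2) and 0 of 10 other cyclins and kinases, with none lower. Cdkn1c was near 0 in WT air (3.8, 2.0, 9.9 and 0.96). It stood at 90.4 in WT physioxia library 2, against 13.7 to 24.8 in the other WT physioxia libraries. No result with libraries left out is given for these list calls. In Tet2-deficient cells none of the list genes was called. Each list gene called in WT was, however, lower in Tet2-deficient air libraries 1 and 2 than in 3 and 4. Cdkn2c, for example, had 263 and 267 against 1130 and 1126, and Mybl2 had 1264 and 610 against 3105 and 2620. The lack of calls therefore does not show that these genes have no oxygen difference in Tet2-deficient cells.

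In WT, same-numbered physioxia and air libraries deviated together, and with the replicate number as a block 2 members passed: E2f6 (adjusted p = 0.0256) and Kif1bp (1.64, adjusted p = 0.037; 0.115 without the block). Kif1bp had 317, 318, 185 and 83.6 in WT physioxia against 84.6, 52.3, 80.4 and 45 in WT air, where only the lowest physioxia value overlaps. In Tet2-deficient cells it had 216, 257, 314 and 343 in physioxia against 56.5, 66.9, 256 and 485 in air. Opposite-strand exons share 10.1% of its exon bases.

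**Figure D5:**
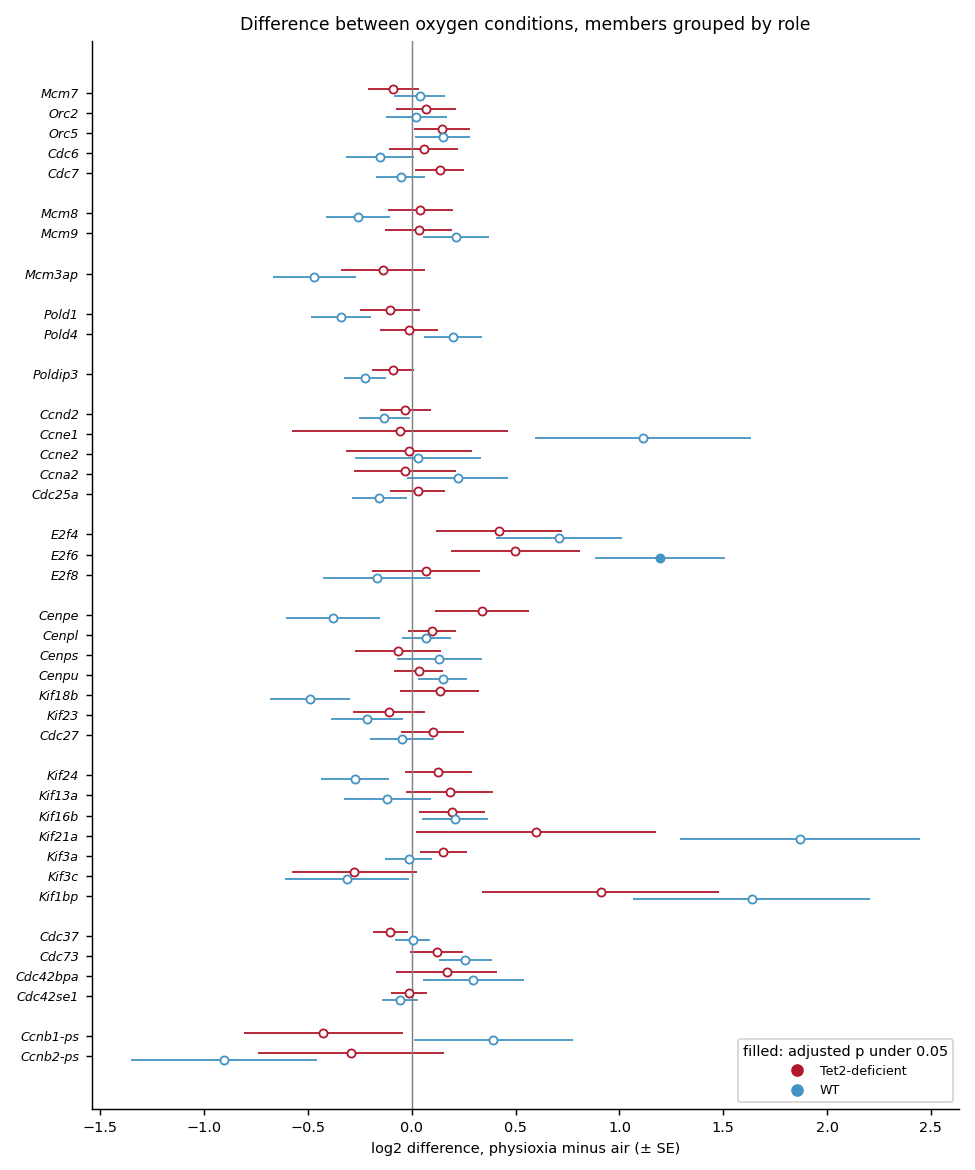
Log2 difference of normalized counts, physioxia minus air (x axis, ± SE of the limma fit), for 39 members by role (y axis), in Tet2-deficient (red) and WT cells (blue). Filled points have an adjusted p under 0.05; only E2f6 in WT is filled. Ccnb1ip1 is left out, as in the genotype plot.

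Like the list genes called in WT, the members E2f4, E2f6 and Kif1bp split among the Tet2-deficient air libraries: libraries 1 and 2 were lower (E2f4 1160 and 1054) than libraries 3 and 4 (3270 and 2153). Libraries 3 and 4 also had the highest erythroid markers of that group, and leaving them out lowers the air mean of these genes by construction. Without both, E2f4 was called higher in physioxia than in air in Tet2-deficient cells (1.05, adjusted p = 0.0365) and in WT cells (0.71, adjusted p = 0.048), and Kif1bp likewise (2.16, adjusted p = 0.0162, and 1.64, adjusted p = 0.0107), the spread being shared across groups. With all libraries neither was called (E2f4 0.42 and 0.71, adjusted p = 1.0 and 0.207). For E2f4 all WT physioxia libraries (958 to 1228) nevertheless lay above all WT air libraries (485 to 808).

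Averaged over genotypes, E2f6 alone was called (0.85 ± 0.22, adjusted p = 0.0399; 3.93% of all genes tested were called, 3.42% higher). No member was called without Tet2-deficient physioxia library 2, 3 or 4, WT physioxia library 1 or 3, Tet2-deficient air library 1 or 2, or WT air library 1, 2 or 4. The interaction test, which asks whether the oxygen difference depends on genotype, called 0 of 40 members in limma (0% of all genes tested), with 2 at an unadjusted p under 0.05, and 0 members in edgeR and DESeq2. Kif18b had the smallest p (0.0345; adjusted p = 0.552), from an oxygen difference of 0.13 in Tet2-deficient and −0.49 in WT cells. Hence genes called at one oxygen level only, such as Kif18b, Kif24 and Pold1, were not shown to differ between levels.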

How the data were processed

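RNA was sequenced from 16 libraries in 4 groups of 4 replicates, described in the labels as matched and biological. The deposited signal values hold reads counted in each gene after scaling by the authors, with 1 size factor for each library. Every value was a whole multiple of 1 read within 0.01 (100% of values), so whole read counts were recovered. The tools DESeq2, HTSeq, STAR, cutadapt and FastQC and the build GRCm38 are named, without versions or roles, per the submitters' processing notes. How the table's genes were chosen and whether counting used strand are not given in the sources used here, so genes that share exon bases are uncertain.

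Identifiers were matched to symbols of GENCODE M21 (6278 of 6288, 10 without one). The members, role groups and lists were chosen with earlier results of these data known. A stem and progenitor marker of these lists is not reported here. Genes at 10 or more in at least 4 libraries were kept (6110 tested, 178 left out). Values were put on a log2 scale after adding 1 and fitted in limma 3.58.1 (intensity trend, under R 4.3.3), 1 mean per group over all 16 libraries, two-sided, with Benjamini-Hochberg adjustment over all tested genes and a threshold of 0.05. Fold changes of low genes are understated by the added 1. Alternatives used edgeR 4.0.16 and DESeq2 1.42.0 on recovered reads, other scalings, filters and pseudocounts, a replicate block and left-out libraries. The scripts were tested on simulated counts. Named were up to 12 members per direction and contrast by size of difference, a fixed set of cell cycle genes, and up to 4 genes per list by p; further members were named to account for all 40.

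Replicate numbers pair the WT libraries: deviations from group means of same-numbered physioxia and air libraries correlated at 0.332, 0.178, 0.162 and 0.331, each above any other number. In Tet2-deficient cells these were 0.322, −0.275, 0.042 and −0.006, and only the first was above any other number. The main fit used no pairing. The replicate block was run as an alternative for every contrast, so outside the oxygen comparison in WT its counts lack this support.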

Additional observations from a re-analysis of the deposited data

Results flagged for a closer look

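Of 160 member and group combinations, 5 held a library set far apart from the other 3 of its group by Dixon's test, and chance gives about 1 in 20. Cenps stood at 3186.5 in WT physioxia library 2, against 1288 to 1432 in the others. Ccnb2-ps stood at 14.3 in WT air library 3, against 5.77 to 7.04. Kif18b stood at 294 in WT air library 3, below the others at 370 to 385. Kif13a stood at 204 in Tet2-deficient physioxia library 1, against 160 to 166. Mcm9 stood at 302 in Tet2-deficient air library 4, against 231 to 239.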

How the results depend on the processing

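Genotype counts in physioxia ran from 20 to 27 of 40 over the libraries left out in turn and changed by less than 1.5 times under every alternative run. In air they ran from 24 to 35, fell to 11 (8 higher, 3 lower) without Tet2-deficient air libraries 3 and 4 together, and to 16 (10 higher, 6 lower) with the 16521 protein-coding genes outside the table counted as unchanged. Fewer samples and more genes adjusted over are part of those alternatives; otherwise the cause was not tested. For physioxia minus air in Tet2-deficient cells, 2 members (and 152 of all genes) were called without Tet2-deficient air libraries 3 and 4 together, and 0 members with any single library left out. Leaving out libraries 3 and 4, which lay with physioxia, favours such calls by construction. In WT, 2 were called with DESeq2, 2 with the replicate block, 3 without those 2 libraries, and 0 in a fit of the WT groups only, without Tet2-deficient physioxia 2 and air 3 together, or with outside genes counted. Left-out libraries gave 0 to 3. Averaged over genotypes, the counts were 2 with the replicate block, 3 without Tet2-deficient air 3 and 4, 0 without Tet2-deficient physioxia 2 and air 3, 0 with outside genes, and 0 to 2 with single libraries left out. The interaction gave 0 throughout. The block changed genotype counts by less than 1.5 times (26 in physioxia), although same-numbered libraries of the genotypes mostly did not correlate best with each other. Quantile normalization moved the split to 15 higher and 5 lower in physioxia and 15 and 13 in air, lowered the median of all genes in air to 0.12, and reversed Cdc42se1 in physioxia (0.000107, limma adjusted p = 0.999). With a minimum of 50, Ccnb1ip1, both pseudogenes and Kif21a gave no value, and single-contrast fits do not exist for the average or interaction. With a pooled spread, 4 replicates leave small differences undetected.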
